A study of Mus musculus with 11 samples.

Results

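In 4 lymphoid populations of the mouse, 6518 stretches of open chromatin lay at a transcription start site and carried an ATAC-seq peak in every one of the 9 libraries. ATAC-seq uses a transposase that cuts and tags accessible DNA, so that a peak marks a place where the chromatin is open. Merging the peaks of the 9 libraries wherever they shared 1 bp or more gave 71400 intervals, and an interval was selected by its peaks, one or more in each library, and by a midpoint within 1000 bp of an annotated transcription start site. Of all intervals, 9464 had a peak in every library and 17725 were start-site intervals. The 6518 that were both, called shared start-site intervals here, made up 9.13% of all intervals, 68.9% of those open everywhere and 36.8% of the start-site intervals. Since the peak calls chose them, their openness in each library is a description and was not tested.

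The cells came from young C57BL/6 mice. CD4SP thymocytes are conventional CD4+ T cells at the end of their development in the thymus (2 libraries). NKT thymocytes, sorted with a CD1d tetramer loaded with αGalCer, are T cells with innate-like properties that express the transcription factor PLZF, the product of Zbtb16 (2 libraries). CLP, the common lymphoid progenitors of the bone marrow, were sorted as lineage-negative cells with IL-7Rα, Flt3 and intermediate cKit and Sca-1 (3 libraries). ILCP, the PLZF-expressing precursors of innate lymphoid cells in the bone marrow, were sorted as lineage-negative cells with IL-7Rα, α4β7 and eGFP from a reporter allele of Zbtb16 (2 libraries), so that ILCP alone were chosen by a reporter gene. The study calls the libraries biological replicates, and the labels do not say which animals gave which library. Tissue and the type of cell cannot be told apart in comparisons of thymus with marrow.

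A promoter is the stretch of DNA at a transcription start site where general factors and RNA polymerase assemble. In mammals most promoters of broadly used genes lie in CpG islands, regions rich in G, C and the CpG dinucleotide that are usually unmethylated and kept free of nucleosomes, and they hold sites for factors found in nearly every cell, such as SP/KLF, ETS, NFY, NRF1 and YY1 proteins. Promoters of genes used in 1 lineage more often have few CpG and depend on lineage factors, and in lymphoid cells many open distal elements hold sites for Runx, PU.1 and AP-1.

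The 250 bases before the start site of 7 genes are printed from RefSeq (GRCm38.p6, the same assembly as mm10), each of which lies whole inside a shared start-site interval. Cadm2, Dnah7c and Dusp2 stand for intervals whose peak scores differed between cell types, Rpl22l1, Psmc6 and Gabpa for highly ranked ribosomal, proteasome and regulator promoters, and Lck for T cell receptor signalling. Capitals mark matches, on either strand, to the short motifs searched. The windows are chr16:67620909-67621158 (minus strand), chr1:46425268-46425517 (plus), chr2:127335909-127336158 (plus), chr3:28805258-28805507 (plus), chr14:45329574-45329823 (plus), chr16:84834874-84835123 (plus) and chr4:129558373-129558622 (minus) in the order of the lines.
Cadm2: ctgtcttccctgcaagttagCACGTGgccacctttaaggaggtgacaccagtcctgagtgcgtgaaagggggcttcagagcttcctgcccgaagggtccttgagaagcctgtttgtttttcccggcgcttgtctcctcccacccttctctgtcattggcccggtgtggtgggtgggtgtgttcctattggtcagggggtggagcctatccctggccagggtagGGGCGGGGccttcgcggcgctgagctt
Dnah7c: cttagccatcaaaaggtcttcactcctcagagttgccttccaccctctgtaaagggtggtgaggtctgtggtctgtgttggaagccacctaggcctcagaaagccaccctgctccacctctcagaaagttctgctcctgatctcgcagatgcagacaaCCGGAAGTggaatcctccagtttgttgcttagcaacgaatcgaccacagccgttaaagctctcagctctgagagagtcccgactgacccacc
Dusp2: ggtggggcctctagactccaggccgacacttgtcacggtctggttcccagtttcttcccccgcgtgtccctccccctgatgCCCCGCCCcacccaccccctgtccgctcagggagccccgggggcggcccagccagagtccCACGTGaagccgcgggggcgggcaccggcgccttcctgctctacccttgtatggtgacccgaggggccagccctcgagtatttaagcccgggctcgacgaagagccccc
Rpl22l1: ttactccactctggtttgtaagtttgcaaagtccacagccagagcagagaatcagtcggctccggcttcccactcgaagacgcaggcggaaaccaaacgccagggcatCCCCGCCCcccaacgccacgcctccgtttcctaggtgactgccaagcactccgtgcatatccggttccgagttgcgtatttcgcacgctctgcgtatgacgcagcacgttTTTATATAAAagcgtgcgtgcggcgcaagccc
Psmc6: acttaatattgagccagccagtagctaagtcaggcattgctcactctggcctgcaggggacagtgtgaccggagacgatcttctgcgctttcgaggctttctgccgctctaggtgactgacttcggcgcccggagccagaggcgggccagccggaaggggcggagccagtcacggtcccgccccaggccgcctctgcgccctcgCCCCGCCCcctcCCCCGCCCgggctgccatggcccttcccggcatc
Gabpa: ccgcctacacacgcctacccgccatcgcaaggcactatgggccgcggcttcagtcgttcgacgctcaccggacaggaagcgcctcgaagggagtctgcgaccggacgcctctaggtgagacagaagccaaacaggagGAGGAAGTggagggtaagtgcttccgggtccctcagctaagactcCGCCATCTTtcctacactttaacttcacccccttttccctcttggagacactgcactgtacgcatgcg
Lck: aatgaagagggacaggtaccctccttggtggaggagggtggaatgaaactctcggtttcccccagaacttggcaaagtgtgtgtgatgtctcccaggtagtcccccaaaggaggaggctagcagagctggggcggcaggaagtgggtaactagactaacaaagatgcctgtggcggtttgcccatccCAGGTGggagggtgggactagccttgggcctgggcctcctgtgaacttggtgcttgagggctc

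Rpl22l1, which encodes a ribosomal protein paralog, holds 2 overlapping matches to a TATA box, 32 and 28 bases before its start, and an SP/KLF match further upstream. Psmc6, an ATPase subunit of the proteasome, has SP/KLF matches at 46 and 34 bases. Gabpa encodes an ETS factor that itself acts at many promoters, and its own promoter holds a PU.1 match at 113 and a YY1 match at 68 bases before the start. Dnah7c, a dynein heavy chain, has the single ETS match of the 7, at 92 bases. Lck, the kinase that starts T cell receptor signalling, has 3 CpG in these 250 bases, against 23 in Rpl22l1, 20 in Psmc6 and 19 each in Gabpa and Dusp2. A match is a run of letters and not a measured binding site. RefSeq entries were found for 4907 of the 6327 genes that name the intervals.

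The more libraries an interval was open in, the more often it lay at a start site. Of the 12864 intervals with a peak in 1 library, 12.1% were start-site intervals, and the share was 24.1% at 5 libraries, 41.7% at 8 and 68.9% at 9. The intervals also widened. The median width of start-site intervals was 727 bp with 1 library, 1573 bp with 8 and 1947 bp with 9, while that of the other intervals was 690, 1269 and 1491.5 bp. A merged interval spans the peaks of all its libraries, so part of the width comes from the number merged.

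**Figure D1:**
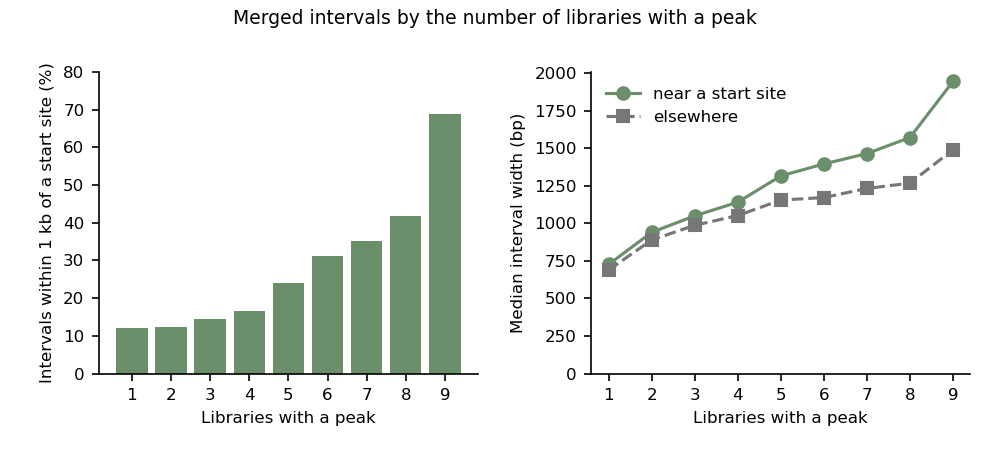
Left, the share of merged intervals with a midpoint within 1 kb of a start site (y axis, percent) by the number of libraries with a peak (x axis). Right, the median width in bp of intervals near a start site and elsewhere. The share goes from 12.1% at 1 library to 68.9% at 9, and start-site intervals are the wider ones at every number of libraries.

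The shared start-site intervals covered 13.9 Mb, with the middle of their widths between 1562 and 2487 bp, the narrowest at 716 bp and the widest at 25351 bp. The median midpoint lay 102 bp from the nearest start and 3238 lay within 100 bp. Just inside the limit were Cd69 (994 bp), Fam49a (995 bp) and Gm25888 (997 bp), and just outside were intervals at Nfkb1 (1002 bp), Rab23 (1003 bp) and Gm19280 (1006 bp). A protein-coding start was found in 6166 of them (94.6%), against 80.4% of the other start-site intervals. In 770 (12.5%) protein-coding genes started on both strands, as at a bidirectional promoter, against 5.05% of the other start-site intervals with a protein-coding gene. The remaining 352 held only other transcripts, among them 153 named for a lincRNA and 46 for an antisense RNA. By gene, 6794 of 21951 protein-coding genes (31%) had such an interval, 240 of them more than 1, and 13613 (62%) had a start-site interval in any library.

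The rule on the midpoint leaves out wide domains that reach past the start site. The 5'-most start of 107 protein-coding genes lay in an interval open in all 9 libraries whose midpoint was more than 1 kb away. Among them were 4 of the 12 immediate-early genes examined, which respond within minutes to stimuli: Jun lay in an interval of 7727 bp, Fosb in one of 10720 bp, Jund in one of 5539 bp and Egr1 in one of 6821 bp. These 4 are counted as having no shared start-site interval below.

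Within a library, the shared start-site intervals held many of its highest-scoring peaks. The peak caller's score has no shared scale between libraries, so each peak was given its percentile among the peaks of its own library. The median percentile of the shared start-site intervals was 84.9 and 88.6 in CD4SP replicates 1 and 2, 84.9 and 89.2 in NKT, 73.9, 87.9 and 87.7 in CLP, and 79.4 and 78.3 in ILCP. It was above the median of the other intervals open everywhere in each library, which ranged from 55.6 (CLP replicate 1) to 76.3 (CLP replicate 2). Of the 6518, 4249 (65.2%) were above the library median in all 9 libraries and 991 were among the highest 10% in all 9.

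**Figure D2:**
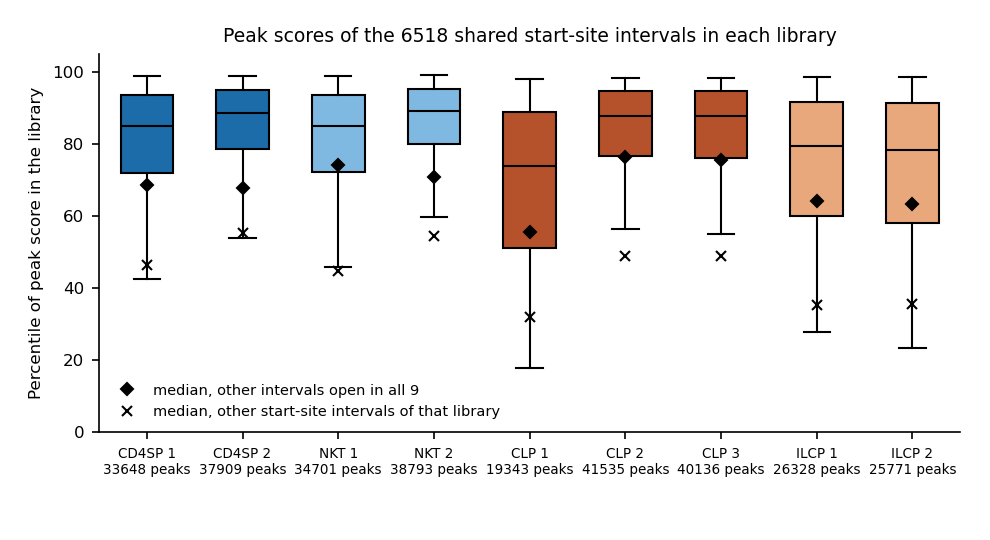
Percentile of peak score within the library (y axis) for the 6518 shared start-site intervals in each library (x axis, with its number of peaks). Boxes show the quartiles with the median, whiskers the 5th and 95th percentiles, diamonds the median of other intervals open in all 9, and crosses the median of the library's other start-site intervals. The median line of each box sits above both marks, and the lowest median, 73.9, is that of CLP replicate 1.

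The libraries differed in how much was called. They held from 19343 peaks (CLP replicate 1) to 41535 (CLP replicate 2), and 36.1% and 16.0% of those peaks lay in shared start-site intervals. The study states a range of reads for its libraries together but no number for each, so the depth behind a peak of 1 library is unknown, and where a library has no peak its site may still be open below the caller's limit. Another 1276 start-site intervals were open in 8 libraries, and of these 622 lacked a peak only in CLP replicate 1, 288 only in ILCP replicate 2 and 209 only in ILCP replicate 1. Without CLP replicate 1, 7140 intervals would meet the rule. As a check of the labels, the start sites of Cd3e, Cd3g and Il2rb were open in all 4 thymic libraries and no marrow library, Flt3 in all 5 marrow libraries and no thymic one, and Zbtb16 in both NKT and both ILCP libraries and in CLP replicate 2. Cd4 itself had a start-site interval in 0 libraries, and its start lay in a wider interval whose midpoint was 3260 bp away, open in the thymus and in ILCP. Other markers went against their lists: Itgb7, which encodes the β7 chain of the α4β7 integrin used to sort ILCP, was open in the 4 thymic libraries and CLP replicates 2 and 3 but in neither ILCP library, Tcf7 (ILCP) in the 2 CD4SP libraries alone, and Tbx21 (NKT) in NKT replicate 2 alone. The starts of Klf1 (erythroid cells), Elane (neutrophils) and Krt8 (epithelium) were open in 0 libraries. Those of Ebf1 and Pax5 (B cells) were open in 9 and 6, of Itgam in the 4 thymic libraries, of Gata1 in 3 and Epcam in 4, and of the CLP marker Ly6a in 0.

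Genes of the basic machinery of the cell had a shared start-site interval more often than protein-coding genes as a whole, and genes of single lineages less often, with no test of the shares. All 11 reference genes used to normalise expression had one, 7 of 8 subunits of the CCT chaperonin, 21 of 30 replication genes, 55 of 93 genes of the respiratory chain, 27 of 50 of the proteasome, 27 of 48 splicing factors, 29 of 55 translation initiation factors, 45 of 84 cytosolic and 37 of 78 mitochondrial ribosomal proteins, 12 of 21 nuclear pore genes, 16 of 30 Mediator subunits and 13 of 28 RNA polymerase genes. Replication-dependent histones (35 of 67) and zinc finger genes (204 of 394) had shares of 52.2% and 51.8%. Of 1559 genes of families used in single tissues (olfactory and vomeronasal receptors, keratins, defensins), 3 had one. The share over all protein-coding genes was 31%, a base that includes genes open in 0 libraries. Among genes with a start-site interval in any library it was 6794 of 13613, and on that base several machinery lists lay near it, with 45 of 81 cytosolic and 37 of 76 mitochondrial ribosomal proteins, 13 of 28 RNA polymerase genes and 16 of 30 Mediator subunits, while 21 of 30 replication genes, 7 of 8 CCT subunits and 55 of 88 respiratory chain genes lay above it and 4 of 15 T cell receptor genes below.

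**Figure D3:**
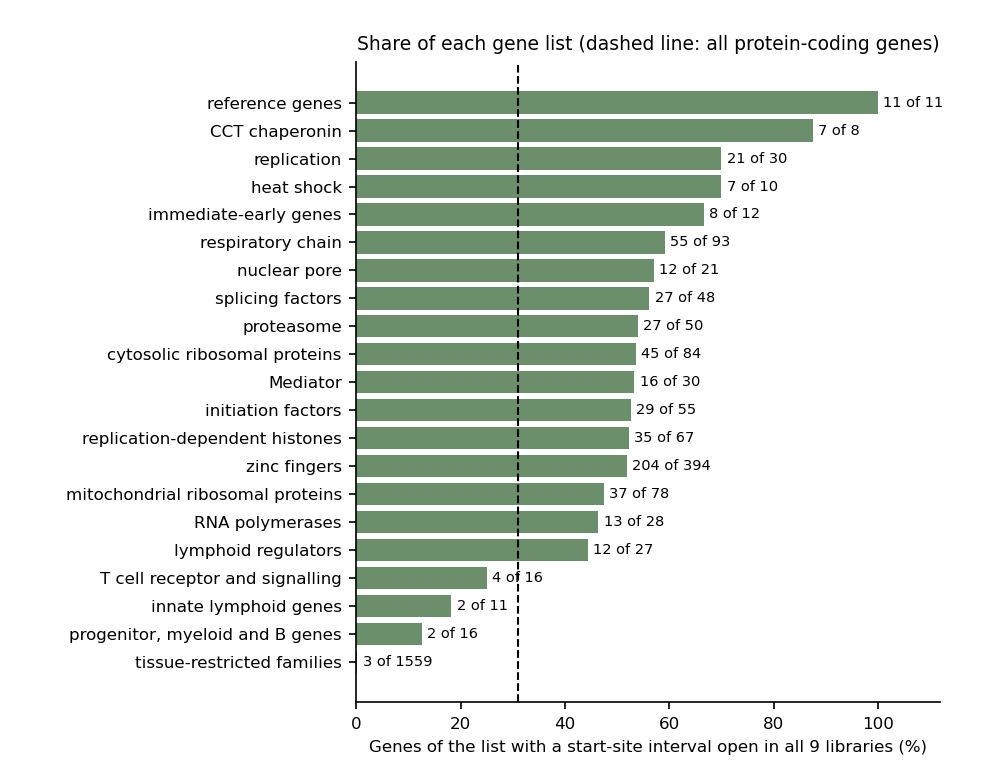
Share of the genes of each list with a shared start-site interval (x axis, percent), with the counts beside the bars and the share over all protein-coding genes, 31%, as a dashed line. Lists of basic machinery lie to the right of the line, and the T cell receptor, innate lymphoid, progenitor and tissue-restricted lists to its left.

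Many of the machinery genes without one were open in the thymus. Cytosolic ribosomal protein genes had an open start-site interval in 79 to 81 of 84 cases in the thymic libraries, in 72 in CLP replicates 2 and 3, and in 54 to 57 in CLP replicate 1 and both ILCP libraries. RNA polymerase genes were open in 26 to 28 of 28 in the thymus and in 13 to 26 in the marrow. Zinc finger genes did not follow that order, with 282 to 299 of 394 in the thymus, 309 and 311 in CLP replicates 2 and 3, and 235 to 259 in the other 3. Of all 17725 start-site intervals, 11794 to 13584 were open in the thymic libraries and 14023 and 13767 in CLP replicates 2 and 3. In CLP replicate 1 there were 8563, and in ILCP 9743 and 9394. Whether the smaller peak lists of CLP replicate 1 and ILCP account for their lower numbers was not tested.

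Of 27 regulators of lymphoid development, 12 had a shared start-site interval. These were Runx3 and Cbfb, the common partner of Runx factors, the ETS factors Ets1, Fli1, Elf1 and Gabpa, the E protein Tcf3 and its inhibitor Id2, Gata3, and the signalling genes Stat5a, Nfkb1 and Jak1. Others missed by 1 or 2 libraries. The start of Ptprc, which encodes CD45 and marks all blood cells, had no peak in ILCP replicate 1, Ikzf1 (Ikaros) in ILCP replicate 2, Spi1 (PU.1) in ILCP replicate 1, Bcl11b in CLP replicate 1, and Il7r in ILCP replicate 2. Runx1 had no peak at its nearest start in both ILCP libraries. Tcf7, which encodes the T cell factor TCF-1, had a peak at this start in the 2 CD4SP libraries alone.

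Of 16 genes of the T cell receptor and its signalling, 4 were open everywhere: Cd3d, a signalling chain of the receptor, the kinase Lck, the adaptor Lat and the costimulatory receptor Cd28. Their neighbours Cd3e and Cd3g, and Cd2, had a start-site interval in the 4 thymic libraries and no marrow library. At Zap70 the interval over the 5'-most start was likewise open in those 4 alone, and counting its other annotated starts the gene had a start-site interval in 7 libraries, all but CLP replicate 1 and ILCP replicate 2. Of 16 progenitor, myeloid and B cell genes, Ebf1 and Hlf were open everywhere, while Flt3 and Meis1 had a start-site interval in the 5 marrow libraries and Rag1 in the 3 CLP libraries. Of 11 genes of innate lymphocytes, Tox, a factor needed for early innate and T lineages, and Pdcd1, which encodes PD-1, were open everywhere.

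The highest mean percentiles were at AW549877 and Gsk3b, which encodes a kinase of Wnt signalling, with means of 99.3 over the 9 libraries. Crem, Gm26901, Mtrf1l, Sfi1, Ifrd1, Zfp369, Cetn3 and Nudcd1 followed, also at 99.3 when rounded. Their order carries little information, since scores pile up at 3100: 1096 shared start-site intervals reached it in CLP replicate 2 and 55 in CLP replicate 1, and 31 reached it in all 9. The lowest means were at Gm11100 (17.4), Hist1h4j (22.4), Gm49708 (26.8), Gm42579 (27.1) and Gm17216 (29.4), of which Hist1h4j, a histone H4 gene, is the only protein-coding one. The widest were at Sfi1 (25351 bp), the pseudogene Gm8493 (10198 bp), Zfp36 (8959 bp), Klf6 (8911 bp) and Bcl11a (8856 bp). At Bcl11a, a factor of B cell and progenitor development, the percentiles ran from 57.0 in CD4SP replicate 1 and 57.5 in NKT replicate 2 to 98.2 and 98.3 in CLP replicates 2 and 3. Another 2 of the intervals lay on the mitochondrial chromosome, where there are no nucleosomes.

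The steadiest were at Hmgb2, Fbxo5, Leprot, Idh1 and Mcm4, with SDs over libraries of 0.294 to 0.347 percentile points against a median SD of 9.42 over all 6518. All 5 had means of at least 98.2, where tied top scores leave little room for a spread, so a small SD there is partly set by the scale. Hmgb2, an abundant chromatin protein, had its peak between percentiles 98.1 and 99 in each library. The most variable were at Rprd2, Pprc1, Gm37638, Ywhag and Ninl. Rprd2, a regulator of RNA polymerase II, was at 81.5 and 93.0 in CD4SP, 77.8 and 93.8 in NKT, 4.38, 74.9 and 71.4 in CLP, and 12.3 and 2.86 in ILCP.

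The centre of the shared start-site intervals was rich in G, C and CpG. In the central 200 bp, the median GC content was 64.5% and the ratio of observed to expected CpG 0.805, against 57.5% and 0.526 in the other start-site intervals and 49.5% and 0.274 in the other intervals open everywhere. A GC content over 50% with a CpG ratio over 0.6 was met by 71.5%, 42.7% and 7.50% of these, and by 2.43% of the remaining intervals. These are descriptions over regions and carry no test.

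In the central 200 bp the motifs of broadly expressed promoter factors were more frequent and those of lineage factors less so than in the other classes. SP/KLF (GGGCGGGG) was found in 17% of the central 200 bp windows, against 12.6% in other start-site intervals, 3.63% in other intervals open everywhere and 1.86% in the rest. ETS (CCGGAAGT) was found in 4.30%, 2.35%, 0.916% and 0.447% in the same order. NFY (CCAATCAG, 3.04% against 1.49%), NRF1 (GCATGCGC, 2.33% against 1.51%) and YY1 (AAGATGGCG, 2.16% against 1.09%) were also more frequent than in other start-site intervals. In the promoters of the genes concerned as RefSeq gives them, ETS was found in 8.77% against 3.89% of all 32851 RefSeq promoters.

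The motifs of lineage factors went the other way in the central 200 bp. Runx (TGTGGTT) was found there in 2.62% of the shared start-site intervals, 6.21% of the other start-site intervals, 13% of the other intervals open everywhere and 13.5% of the rest. PU.1 (GAGGAAGT) was found in 1.64%, 3.48%, 6.31% and 6.63%, and AP-1 (TGACTCA) in 1.58%, 3.14%, 5.97% and 5.48%. A TATA box (TATAAA) was in 2.90%, 4.99%, 8.49% and 9.72%. Over whole intervals, which are wider in the shared class, the order of the start-site classes turned: Runx was in 30.6% of the shared and 23.9% of the other start-site intervals, PU.1 in 14.8% and 11.9%, AP-1 in 22.8% and 16.6%, and the TATA box in 55.4% and 34.7%. In the RefSeq promoters Runx was in 3.85% for the genes concerned and 5.27% for all, the TATA box in 6.67% and 13.6%, and PU.1 in 3.24% and 3.20%. Most windows, 69.2%, held none of the 9 promoter motifs searched (ETS, NRF1, SP/KLF, YY1, NFY, CRE, ZBTB33, E-box and THAP11), so these letters were absent from the centre of most of the intervals. Both strands were read, and base composition differs between the classes, which changes how often such letters occur.

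Start sites in regions of lower GC content were more often open everywhere than those in the richest regions. Among start-site intervals, the share open in all 9 libraries was 43.7% where the surrounding 100 kb had a GC content under 40%, 48.8% at 40 to 42%, and then fell to 24.3% at 48% and over. The libraries behaved differently. In CD4SP replicate 2 the share of start-site intervals open was 59.2% in the poorest and 80% in the richest regions, and in NKT replicate 2 it was 62% and 83.4%. In replicate 1 of both types it was highest in the middle, at 59.2%, 70.6% (42 to 44% GC) and 62.8% in CD4SP and 60.4%, 70.4% and 65.4% in NKT. In CLP replicate 1 it dropped from 57.9% to 34.8% and in ILCP replicate 1 from 68.1% to 39.3%, and CLP replicates 2 and 3 and ILCP replicate 2 also dropped. By gene density, the share of open genes with a shared start-site interval was 47.9% where 0 other protein-coding genes lay within 100 kb, 55.8% with 1 or 2, 52.5% with 3 to 5, 43.6% with 6 to 9 and 40.2% with 10 or more. By chromosome, the share of open genes ran from 30.8% on chromosome 11 to 62.6% on chromosome 13, the mitochondrial and Y chromosomes aside, and was 54.9% on chromosome 7, which had the highest median gene density of the autosomes.

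**Figure D4:**
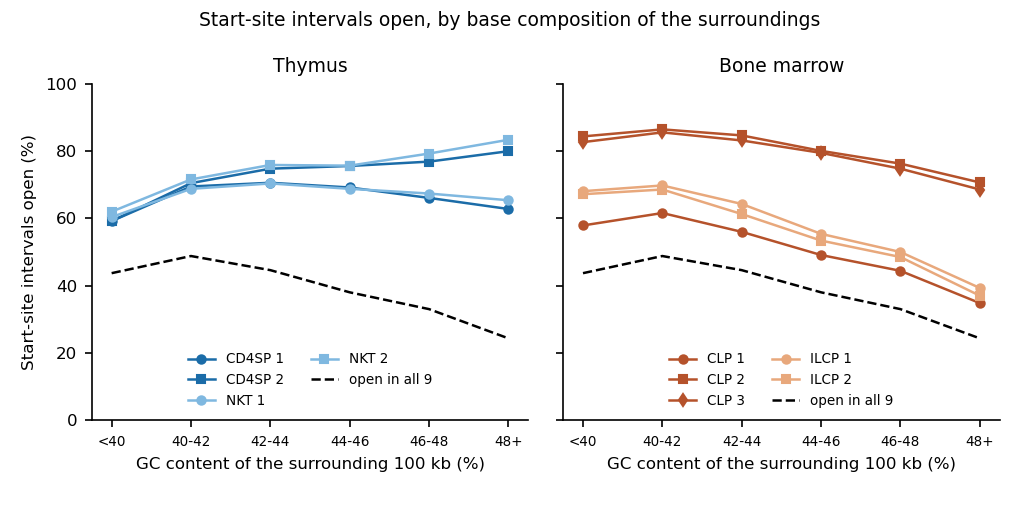
Share of start-site intervals with a peak (y axis, percent) by the GC content of the surrounding 100 kb (x axis, percent), for each thymic library (left) and each bone marrow library (right), with the share open in all 9 as a dashed line. The lines of CD4SP and NKT replicate 2 go up to 80% and 83.4% in the richest regions, those of replicate 1 end lower than at their middle, and all 5 marrow lines end below where they start.

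For comparisons between cell types, the highest peak score of each of the 9464 intervals open everywhere was ranked within its library and turned into normal scores, in which 1 unit is 1 SD over the intervals. Percentiles in these comparisons are therefore among 9464 intervals. The rule treats all libraries alike and does not fix any difference between cell types. Differences were tested with limma over all 9464 and called at a Benjamini-Hochberg adjusted p under 0.05. They are differences in rank, and a rank can go up because others go down. In bulk samples an open site in fewer of the cells and a weaker signal in each cell cannot be told apart.

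NKT and CD4SP thymocytes, the comparison of innate-like with conventional T cells, had calls at few shared start-site intervals. In NKT, 12 (0.184%) were higher and 1 (0.0153%) lower, against 0.254% and 0.0423% of all 9464, and 463 had an unadjusted p under 0.05. There were 0 calls in either direction with ranks among all peaks of a library, and 0 with the replicate number as a block. In simulated data with 200 of 9464 intervals changed in NKT, 39% of shifts of 1 unit and 99% of shifts of 2 units were called. Few calls therefore do not show that the 2 cell types are alike, since smaller differences can go uncalled. The interval named for Klf12, a transcription factor of the Krüppel-like family (chr14:100282329-100287653), was at percentiles 10.3 and 13.4 in CD4SP and 94.8 and 100 in NKT, a difference of 3.65 ± 0.47 units (SE, adjusted p = 0.0262, limma). In the marrow it was at 76.4, 92.9 and 93.4 in CLP and 95 and 94.3 in ILCP, so that the CD4SP libraries stood alone at the low end. A lincRNA on the same chromosome, 6330576A10Rik, had a like order, at 36.5 and 17.8 in CD4SP, 99.2 and 96.9 in NKT, 67.8, 81.5 and 79.0 in CLP and 98.8 and 98.9 in ILCP. It was the one interval higher both in NKT than in CD4SP (2.78 ± 0.29 units, adjusted p = 0.0136) and in ILCP than in CLP (1.55 ± 0.26 units, adjusted p = 0.00988) among the intervals named here.

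Other intervals higher in NKT also had low ranks in CD4SP and mid or high ranks elsewhere. The interval named for Ppargc1a, a coactivator of mitochondrial genes, was at 9.67 and 4.03 in CD4SP, 67.6 and 62.5 in NKT, and between 67.7 and 93.4 in the marrow libraries (1.91 ± 0.28 units, adjusted p = 0.0404). Cadm2, an adhesion molecule whose promoter is printed above, was at 7.97 and 10.3 in CD4SP and 66.8 and 67.0 in NKT (1.77 ± 0.27, adjusted p = 0.0432), with every marrow library higher still. Triqk, Flrt3 and Pramef12os showed the same order of CD4SP, NKT and marrow. Podnl1, a matrix protein, was different: it was at 60.7 and 57.8 in NKT and between 2.55 and 12.5 in the other 7 libraries (1.68 ± 0.27, adjusted p = 0.0432). The interval of 4930500F04Rik was at 0.914 and 0.724 in CD4SP and 32.1 and 30.6 in NKT. The single lower interval, at the antisense transcript Gm45666, was at 77.4 and 59.9 in CD4SP and 16.6 and 7.18 in NKT (-1.72 ± 0.28, adjusted p = 0.0432).

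None of the members of any of the gene lists was called between NKT and CD4SP (limma, adjusted p under 0.05). Over all shared start-site intervals 0.184% were higher and 0.0153% lower, and at these shares few or no calls would fall in the lists. The number of calls moved with the libraries in the fit, which shares 1 spread among all groups. There were 0 calls without CD4SP replicate 2, ILCP replicate 1 or ILCP replicate 2. There were 3 higher and 0 lower without CD4SP replicate 1, CLP replicate 2 or CLP replicate 3, 1 and 0 without NKT replicate 1, 9 and 5 without NKT replicate 2, and 22 and 3 without CLP replicate 1.

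**Figure D5:**
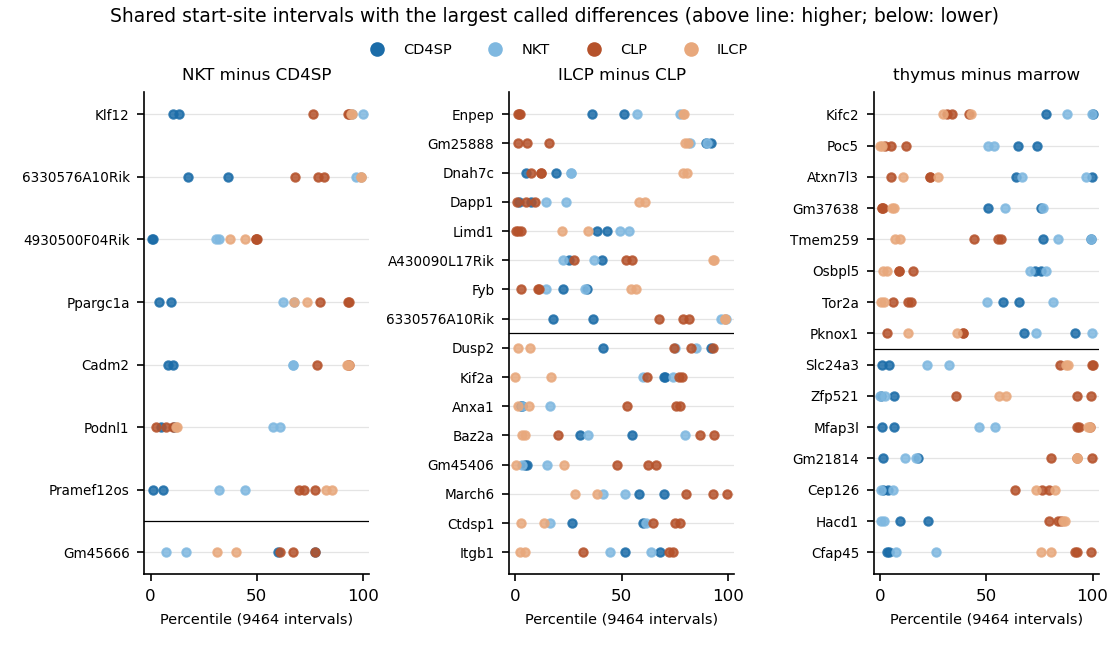
Percentile of the peak score among the 9464 intervals open everywhere (x axis) in each of the 9 libraries, as points coloured by cell type, for up to 8 of the intervals with the largest called differences in each direction of 3 comparisons. Intervals above the line in a panel were called higher and those below it lower. At Klf12 the CD4SP points lie at 10.3 and 13.4 and the NKT points at 94.8 and 100, and at Enpep the 3 CLP points lie under 2.

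ILCP and CLP, a PLZF-expressing precursor and its multipotent progenitor stage, had calls at more of the shared start-site intervals, and more of these were lower in ILCP. In ILCP 102 (1.56%) were higher and 173 (2.65%) lower, where 4.41% and 4.34% of all 9464 were called, and 1224 had an unadjusted p under 0.05. Among the other intervals open everywhere 10.7% were higher and 8.08% lower. With ranks among all peaks of a library 4 were higher and 64 lower, and with the replicate block 19 and 71. Without CLP replicate 1, 424 were higher and 518 lower, and with 1 of the ILCP libraries left out between 6 and 12 were higher and 44 to 54 lower. Without CLP replicate 2 they were 23 and 60, without CLP replicate 3 13 and 56, and without either CD4SP library 56 and 104.

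The interval named for Enpep, an aminopeptidase of precursor B cells and other tissues, was at 1.95, 1.38 and 1.90 in CLP and 79.1 and 79.4 in ILCP (2.93 ± 0.23 units, adjusted p = 0.000532). Its thymic ranks lay between, from 36.2 to 77.3. At Dnah7c, whose promoter is printed above, ILCP stood apart from the other 7 libraries, with 79.0 and 80.7 against 4.87 to 26.3 (2.10 ± 0.25, adjusted p = 0.0023). Dapp1, a signalling adaptor of B cells, was at 0.983, 9.40 and 4.95 in CLP and 61.2 and 58.4 in ILCP, and Fyb, an adaptor of T cell receptor signalling also called ADAP, at 2.62, 10.5 and 10.9 in CLP and 56.8 and 54.4 in ILCP (1.62 ± 0.28, adjusted p = 0.011). With 6330576A10Rik, described above, Gm25888, Limd1, A430090L17Rik, Pde11a and 4930553P18Rik completed the 10 that were highest in ILCP relative to CLP.

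The largest difference in the other direction was at Dusp2, a phosphatase that acts on MAP kinases and is induced by activation. It was at 74.6, 92.9 and 82.5 in CLP and 1.26 and 6.96 in ILCP (-2.88 ± 0.45 units, adjusted p = 0.00684), with 41.3 and 91.9 in CD4SP and 85.2 and 75 in NKT. Gbp2, an interferon-induced GTPase, was at 36.1, 51.2 and 47.2 in CLP, 3.45 and 0.682 in ILCP and between 57.9 and 88.3 in the thymus (-2.01 ± 0.32, adjusted p = 0.0078). Itgb1, the integrin β1 chain, was at 31.9, 72.2 and 74.3 in CLP and 4.47 and 2.29 in ILCP (-2.10 ± 0.35, adjusted p = 0.00893). At these 3 the ILCP libraries were the lowest of all 9.

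Anxa1, an anti-inflammatory annexin, and Serpinb1a, an inhibitor of neutrophil proteases, were instead high in CLP alone. Anxa1 was at 52.6, 75.6 and 77.4 in CLP, 6.48 and 1.08 in ILCP and 2.87 to 16.2 in the thymus (-2.41 ± 0.34, adjusted p = 0.00499), a difference that turned to 0.08 units with covered length in place of the score. Serpinb1a was at 29.9, 81.6 and 78.5 in CLP and at most 5.90 in the other 6 libraries. Kif2a, Baz2a, Gm45406, March6 and Ctdsp1 were the others among the 10 with the largest decrease. At Kif2a the ILCP values were 0.0211 and 16.7, with all other libraries at 60 or over.

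Between ILCP and CLP, 1 of the 209 zinc finger intervals was called, 0 of the 55 of the respiratory chain, 2 of the 46 of cytosolic ribosomal proteins, 2 of the 7 of the CCT chaperonin, 1 of the 8 of immediate-early genes, 1 of the 13 of lymphoid regulators and 2 of the 4 of the T cell receptor, where 1.56% and 2.65% of all shared start-site intervals were higher and lower. Myc, a driver of growth and an immediate-early gene, was at 61.0, 92.9 and 93.4 in CLP and 23.4 and 22.1 in ILCP (-1.83 ± 0.35 units, adjusted p = 0.0156), while CD4SP was at 62.7 and 79.3 and both NKT libraries were at 22.5 (NKT minus CD4SP -1.32 ± 0.39, adjusted p = 0.259). Ebf1, the factor that sets B cell fate, was at 38.5, 30.8 and 34.8 in CLP and 6.91 and 1.99 in ILCP (-1.37 ± 0.22, adjusted p = 0.00781). Lat was lower in ILCP, at 4.81 and 6.46 against 45.0, 20.4 and 29.1 (-1.09 ± 0.27, adjusted p = 0.0358), and Lck higher, at 26.4 and 18.3 against 4.71, 6.27 and 3.46 (0.91 ± 0.21, adjusted p = 0.0315). Nfkb1 was higher in ILCP (1.15 ± 0.28, adjusted p = 0.0345). Gata3 was not called, at 74.3, 92.9 and 93.4 in CLP and 89.6 and 91.9 in ILCP, nor was Id2, at 73.6, 69.6 and 63.9 against 50.6 and 62.2.

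Thymic and marrow libraries differed at a large part of the shared start-site intervals. In the thymus 1810 (27.8%) were higher and 1416 (21.7%) lower, against 25.2% and 24.4% of all 9464, and 3675 had an unadjusted p under 0.05. Among the other intervals open everywhere 19.6% were higher and 30.2% lower. The split of calls depends on the scale. Ranked among all peaks of a library, 1879 were higher and 548 lower. Adjusted for the GC content of the interval they were 1624 and 1613, and with the length covered by peaks in place of the score 633 and 586.

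Intervals much higher in the thymus included Btla, an inhibitory receptor of lymphocytes, at 90.4 and 86.6 in CD4SP, 90.6 and 65.9 in NKT, and 1.23 to 30.7 in the marrow (2.10 ± 0.36 units, adjusted p = 0.00128). Poc5, a centriole protein, was at 51.0 to 73.9 in the thymus and 0.137 to 12.1 in the marrow (2.43 ± 0.21, adjusted p = 9.34e-05), and Osbpl5, a lipid transfer protein, at 70.4 to 78.1 and 1.42 to 15.7 (2.29 ± 0.16, adjusted p = 4.6e-05). The groups did not overlap at these 3, but they were named for the size of this difference. The share of all intervals without overlap was not counted. At Kifc2, Atxn7l3 and Tmem259 the thymic libraries of replicate 2 stood over those of replicate 1, as at Atxn7l3 with 64.2 and 99.9 in CD4SP and 66.8 and 96.9 in NKT against 4.92 to 27.2 in the marrow. Gm37638, Tor2a, Pknox1 and Ywhag were the others of the 10.

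In the other direction, Zfp521, a zinc finger factor of stem and progenitor cells, was at 6.66 and 0.618 in CD4SP and 0.122 and 2.49 in NKT, against 35.8, 92.9 and 99.4 in CLP and 59.1 and 55.9 in ILCP (-2.95 ± 0.52 units, adjusted p = 0.00154). Slc24a3, a sodium, calcium and potassium exchanger, was at 1.07, 4.17, 21.9 and 32.5 in the thymus and 84.9 to 100 in the marrow (-3.14 ± 0.42, adjusted p = 0.000447), and Hacd1, an enzyme of long fatty acids, at 0.523 to 22.6 and 79.4 to 86.9 (-2.71 ± 0.18, adjusted p = 4.5e-05). Mfap3l, Gm21814, Cep126, Cfap45, Ninl and Pcdh19 also had some of the largest decreases. The 2 tissues did not overlap at any of them, which follows in part from naming them by the size of this difference. Each was nevertheless open in all 4 thymic libraries, as the rule requires.

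Among lymphoid regulators, Tcf3 was higher in the thymus, at 71.6 to 88.4 against 7.57 to 39.6 (1.68 ± 0.25, adjusted p = 0.000625), and Fli1, an ETS factor of progenitors, lower, at 8.32 to 13.8 against 59.0 to 93.4 (-1.96 ± 0.23, adjusted p = 0.000259). Nfkb1 and Jak1 were also lower. Gabpa lay between 92.9 and 98.3 in all 9 libraries. Cd3d was at 56.1 and 72.0 in CD4SP, 34.8 and 51.6 in NKT and 10.5 to 21.5 in the marrow (1.18 ± 0.17, adjusted p = 0.000639). Lck was also higher in the thymus (0.92 ± 0.16, adjusted p = 0.00139). Both had a peak in every marrow library, as the rule requires, with mean normal scores below those in the thymus. Whether the Cd3d interval holds the RefSeq promoter of the gene is not given here. Among immediate-early genes, Egr2 was higher in the thymus (1.24 ± 0.16) and Fos, Ier2 and Zfp36 lower.

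Zinc finger and histone genes were more often lower in the thymus than higher. Of the 209 intervals of zinc finger genes 81 were lower and 25 higher, where 21.7% of all shared start-site intervals were lower and 27.8% higher, with a median difference of -0.324 units against 0.0588 over all 6518 shared start-site intervals and -0.00127 over all 9464. Zfp708, for example, was at 60.3 and 50.1 in CD4SP, 82.3 and 66.9 in NKT, 91.1, 85.7 and 93.4 in CLP and 95.7 and 95.3 in ILCP (-1.09 ± 0.17, adjusted p = 0.000873). Zfp142 went the other way, at 93.4 to 96.9 in the thymus and 69.4 to 88.5 in the marrow (0.73 ± 0.18, adjusted p = 0.0087). Histones showed a median of -0.419, with 9 lower and 3 higher of 23 intervals, and several of these genes lie in 1 cluster and share an interval. Some zinc finger and histone genes have close paralogs, where the placement of short reads can be uncertain. Whether this affects the counts was not tested.

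Other machinery lists moved in both directions, except the RNA polymerases, with 3 higher and 0 lower of 13 intervals. The counts of these lists are to be read against the 27.8% higher and 21.7% lower of all shared start-site intervals. Of 55 respiratory chain intervals 21 were higher and 9 lower. Uqcrb, a subunit of complex III, was among the lower ones, at 51.7 to 67.8 in the thymus and 83.5 to 95.3 in the marrow. Of 46 intervals of cytosolic ribosomal proteins 13 were higher, such as Rpl31 (1.21 ± 0.17, adjusted p = 0.000585), and 8 lower, such as Rpl22l1 (-0.66 ± 0.15, adjusted p = 0.00603), whose promoter is printed above. Of 29 initiation factors 12 were higher and 6 lower, of 28 splicing factor intervals 9 and 3, and of 27 proteasome intervals 9 and 6. Of 21 replication intervals 2 were higher and 5 lower, of 16 Mediator intervals 5 and 5, and of 7 CCT intervals 2 and 2. Of 38 intervals of mitochondrial ribosomal proteins 9 were higher and 3 lower, and of 13 nuclear pore intervals 2 and 3. Orc5, a subunit of the origin recognition complex, was at 39.8 to 66.2 in the thymus and 92.9 to 96.1 in the marrow.

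The differences between thymus and marrow moved with the base composition of the region. Where the surrounding 100 kb had a GC content under 40%, 7.37% of the shared start-site intervals were higher in the thymus and 39.9% lower, with a median difference of -0.364 units. At 48% and over 49.6% were higher and 7.27% lower, with a median of 0.575. By the number of protein-coding genes within 100 kb, from 0 or 1 to 11 and over, the share higher went from 17.9% to 46.9% and the share lower from 30.2% to 7.89%. The part of base composition in the tissue difference was not tested beyond the adjusted fit, in which 1632 were higher and 1284 lower after the GC content of the surroundings was removed within each library.

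The difference between NKT and CD4SP was compared with that between ILCP and CLP in the same fit, to ask where both comparisons with a PLZF-expressing cell differ from each other. It was called positive at 11 (0.169%) and negative at 4 (0.0614%) of the shared start-site intervals, against 0.264% and 0.37% of all 9464, and 618 had an unadjusted p under 0.05. There were 0 calls with ranks among all peaks of a library, and 0 with the replicate block. Without CLP replicate 1 they were 104 and 33. With any other single library left out, at most 1 was called in each direction. The intervals are described one by one in the closing section.

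Some named start sites are alternative starts far from the promoter that RefSeq gives for the gene. Of 4918 shared start-site intervals with a RefSeq entry for the named protein-coding gene, 277 (5.63%) did not overlap that promoter. The share was 18.5% (12 of 65) among those higher and 15.8% (18 of 114) among those lower in ILCP than in CLP, and 5.36% and 7.06% among those higher and lower in the thymus. It was 2 of 5 among those higher in NKT than in CD4SP, and 3 of 7 and 1 of 2 among the positive and negative differences of differences. Of the protein-coding intervals named by the size of a difference, those of Klf12, Ppargc1a, Enpep, Dapp1, Fyb, Pde11a, Cfap45, Efr3b and Nomo1 were of this kind, so that they lie at annotated starts inside or outside the usual transcript and not at the RefSeq promoter.

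The median stretch covered by peaks at a shared start-site interval was 1348 and 1544 bp in CD4SP, 1260 and 1500 bp in NKT, 1082, 1779 and 1759.5 bp in CLP and 1103 and 1085 bp in ILCP. The difference between NKT and CD4SP was -66.0 bp (exact permutation test of library medians, two-sided, p = 0.667, with 0.333 the smallest p this design allows) and that between ILCP and CLP -446.2 bp (exact p = 0.4, smallest possible 0.1). Over both tissues the mean difference was -256.1 bp (exact permutation within tissues, p = 0.183, smallest possible 0.0167). CLP replicate 1 lay with ILCP, and without it the difference between ILCP and CLP was -675.2 bp (exact p = 0.333, the smallest this design allows). The centre of the highest-scoring peak of an interval lay upstream of the start in most libraries, by a median of 31.0 and 13 bp in CD4SP, 42.5 and 15.5 in NKT, 51.0 in CLP replicate 1 and 40 and 44 in ILCP, and downstream by 24.0 and 25 bp in CLP replicates 2 and 3. The difference over both tissues was -24.17 bp (exact permutation test, p = 0.217). With single libraries left out it ran from -36.75 bp (without CLP replicate 1) to -17.42 bp (without NKT replicate 1).

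Similarity of the libraries followed tissue more than type. Over the shared start-site intervals the normal scores correlated with r of 0.79 to 0.949 between libraries of 1 type and 0.423 to 0.674 between thymus and marrow, across intervals that are not independent replicates. CD4SP replicate 2 was slightly closer to NKT replicate 2 (r = 0.901) than to CD4SP replicate 1 (0.889), and CLP replicate 1 was closer to ILCP replicate 1 (0.844) than to CLP replicate 2 (0.79), an order that turned over all 9464 intervals (0.767 and 0.795).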

How the data were processed

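The authors sorted the cells, tagged open chromatin with a transposase, aligned reads to mm10 with Bowtie and ran MACS on each library by itself to call peaks. Picard and HOMER are also named in the submitters' processing notes. The deposited peak lists give a position and a score for each peak. The scores are not normalised between libraries, the lowest is 120 and many are tied at 3100. A read number for each library and the tool versions are not given in the sources used here, and the Runx1 ChIP samples were not analysed here.

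Peaks were merged with Python 3.11.15 (pandas 2.3.3, numpy 2.4.6, pysam 0.24.0) and joined to GENCODE M21 start sites. Ranks were tested with limma 3.58.1 in R 4.3.3 on 9464 intervals, 1 fit of 9 libraries and 4 contrasts, with Benjamini-Hochberg adjustment, after a check on simulated data. Named intervals are the 10 with the largest called differences in each direction, gene list members and the extremes of percentile and width. The steadiest and most variable intervals were named after their values were seen. Some items that the rule covers are not reported here. Members and lists were chosen with earlier results of these data known. Alternatives were other definitions of an interval, other scales, GC adjustment, a replicate block and leaving out each library, and 2 of them, the adjustment for regional GC and the block in the thymus alone, were chosen after seeing the data.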

Additional observations from a re-analysis of the deposited data

Results flagged for a closer look

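The difference between NKT and CD4SP and that between ILCP and CLP were themselves different at 15 shared start-site intervals, by the limma contrast of one difference minus the other (adjusted p under 0.05). The 14 that the naming rule covers are given here, in units of 1 SD of normal scores and in percentiles among the 9464 intervals open everywhere. Leaving out any 1 library other than CLP replicate 1 left at most 1 call in each direction, and leaving out CLP replicate 1 gave 104 positive and 33 negative ones.

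In 10 the difference was more positive in the thymus. Anxa1 had 2.86 units (SE 0.50, adjusted p = 0.0455), with a drop from CLP to ILCP and low ranks in the thymus, though its drop from CLP to ILCP turned to 0.08 units with covered length in place of the score. Il15, which encodes a cytokine of innate lymphocytes, had 2.01 units, at 53.3, 55.9 and 48.8 in CLP, 5.83 and 11.1 in ILCP and 2.41 to 10.7 in the thymus. Nomo1 had 1.80 units in the same pattern. Ppargc1a (2.64 units) and 4930500F04Rik (2.14 units) were low in CD4SP alone. Slc17a9, a vesicular nucleotide transporter, had 2.40 units and went in opposite directions, at 30.2 and 27.2 in CD4SP and 69.1 and 63.2 in NKT, but 32.2, 65.5 and 39.9 in CLP and 8.99 and 4.42 in ILCP. Prkd2 (2.32 units), Efr3b (2.04 units), AC154492.2 (1.91 units) and Lax1 (1.78 units), the last an adaptor of lymphocyte signalling, were also higher in both NKT libraries than in both CD4SP libraries and lower in both ILCP than in the 3 CLP libraries.

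In 4 it was more negative in the thymus. Gm25888 had -2.69 units, Enpep -2.30 and Gm5547 -1.79, and in all 3 the CLP libraries were the lowest of the 9. Btn2a2, a butyrophilin that dampens T cell responses, had -1.94 units, at 39.0 and 29.4 in CD4SP, 6.84 and 6.24 in NKT, 22.3, 13.8 and 15.9 in CLP and 49.6 and 41.9 in ILCP, and its difference turned to 0.17 with covered length in place of the score. The intervals of Ppargc1a, Efr3b, Nomo1 and Enpep do not overlap the promoter that RefSeq gives for the gene.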

How the results depend on the processing

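Requiring peaks to cover at least 50% of an interval left 3457 shared start-site intervals and 17% of protein-coding genes. The other definitions gave 5413 to 7140. Calls are given below as higher and lower. For NKT against CD4SP, percentile ranks gave 23 and 2, quantile-normalised log2 scores 20 and 1, ranks among all peaks 0 and 0, covered length 14 and 3, GC adjustment 27 and 5, the trended robust fit 20 and 2, and a fit on the shared start-site intervals alone 8 and 0. For ILCP against CLP, percentile ranks gave 194 and 232, ranks among all peaks 4 and 64, covered length 14 and 72, GC adjustment 175 and 224, and the fit on the intervals alone 21 and 33. For thymus against marrow, covered length gave 633 and 586 and ranks among all peaks 1879 and 548. For the difference of the differences, percentile ranks gave 27 and 17, log2 scores 24 and 8, ranks among all peaks 0 and 0, covered length 18 and 1, GC adjustment 39 and 8, and the fit on the intervals alone 0 and 0. The cause was not tested.

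Whether replicate numbers pair the samples is not known, since the labels name no shared batch. Same-numbered libraries of CD4SP and NKT deviated together from the means of their types (r = 0.53). With 2 libraries of each type the deviations mirror each other, so both pairs give the same r and count as 1 value. For the other same-numbered libraries r was -0.053 to 0.105. With the replicate block the calls were 0 and 0 for NKT against CD4SP, 19 and 71 for ILCP against CLP, and 0 and 0 for the difference of differences. With the block and GC adjustment they were 2 and 0, 29 and 73, and 1 and 0. With the block in the thymus alone they were 21 and 4 for NKT against CD4SP and 29 and 5 for the difference of differences. Permuting within numbers, the width differences had exact p = 0.5, 0.5 and 0.125, where the smallest possible were 0.5, 0.25 and 0.0625, so none could pass 0.05.

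Leaving out each library gave 0 to 22 higher and 0 to 5 lower for NKT against CD4SP, 6 to 424 and 44 to 518 for ILCP against CLP, and 0 to 104 and 0 to 33 for the difference of differences. The width difference of NKT ranged from -186.0 to 54.0 bp and the offset difference from -20.5 to 6.5 bp. With covered length, Anxa1 in ILCP against CLP (0.08) and Btn2a2 in the difference of differences (0.17) reversed. Named intervals were still called in 399 of 400 combinations with an alternative for thymus against marrow, 319 of 400 for ILCP against CLP, 96 of 220 for NKT against CD4SP and 97 of 280 for the difference of differences. The depth of each library, known only as a range over all of them, limits every comparison of peak lists.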
